A study of Mus musculus with 12 samples.

Results

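The MAP kinase phosphatases described here are the products of Dusp1, Dusp2, Dusp4, Dusp5, Dusp6, Dusp7, Dusp10 and Dusp16, 8 of the 18193 mouse genes that had a probe set of their own on the array. Their transcripts were measured in haematopoietic stem cells (HSCs) from bone marrow, the cells that maintain all blood lineages. A probe set counted for a gene when the array's annotation gave it to that gene alone, and where a gene had several, the one of highest mean log2 signal over all 12 arrays was used. The 8 genes had 12 such probe sets: 3 for Dusp7, 2 each for Dusp10 and Dusp16, and 1 each for the others. All 8 genes were among the 12083 that passed the filter on low signals, a signal above the array's median on at least 3 arrays.

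MAP kinases (ERK, JNK and p38) are switched on when an upstream kinase phosphorylates a threonine and a tyrosine in their activation loop, and the dual-specificity phosphatases of this family remove both phosphates. Ras proteins, NRAS among them, drive the ERK branch through RAF and MEK, and several of these phosphatases are themselves transcribed in response to ERK or stress kinases, which makes them feedback inhibitors. DUSP1, DUSP2, DUSP4 and DUSP5 are inducible nuclear enzymes, DUSP6 and DUSP7 are cytoplasmic enzymes selective for ERK, and DUSP10 and DUSP16 act mainly on JNK and p38.

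The 4 groups, of 3 biological replicates each, were NrasG12D/+ GFPhigh, NrasG12D/+ GFP-, wild-type GFPhigh and wild-type GFP- HSCs. The G12D change in NRAS keeps the protein in its active, GTP-bound form, and in these mice 1 allele carried it. Every group shares a doxycycline treatment of 6 weeks, and cells were collected 12 weeks after it ended, and the submitters label GFPhigh cells quiescent and GFP- cells cycling. The GFP transgene, its promoter, any Cre driver, the mice's age and the number of mice behind a sample were not given in the sources used here. "Nras" below stands for NrasG12D/+, and replicates are numbered as in the labels. The signals came from sorted populations, so fewer cells of a type and less RNA per cell cannot be told apart.

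The arrays differed in quality. Median signals per array were 44 to 129.6, on a scale where the trimmed mean of every array was 500. Around their group means 4 arrays scattered more than the rest (array weights of 0.31 to 0.52, against 0.90 to 2.46): Nras GFPhigh replicates 1 and 2, Nras GFP- replicate 1 and wild-type GFPhigh replicate 2. Leaving out these 4 arrays, as done below, leaves Nras GFPhigh cells with replicate 3 alone. Replicate 3 of every group had low Xist and high Eif2s3y signals, the reverse of replicates 1 and 2. Of 12 listed HSC markers, 10 were on the array, and all 10 exceeded the array median on all 12 arrays. Among other cell types, the 9 of 10 listed granulocyte genes on the array had a summed signal of 5728 to 57195 in Nras GFPhigh cells, 4044 to 4627 in Nras GFP- cells, 467 to 11695 in wild-type GFPhigh cells and 1994 to 12799 in wild-type GFP- cells, and none was listed at 0. The 10 endothelial or stromal genes summed to 3449 to 7160 in Nras GFPhigh cells, 616 to 4164 in Nras GFP- cells, 782 to 2033 in wild-type GFPhigh cells and 2668.5 to 3412 in wild-type GFP- cells, and none was listed at 0. Summed erythroid and monocyte or macrophage signals reached 11881.5 and 13515 in Nras GFPhigh cells, against at most 5025 and 5529 in any other group. Of 8 listed mast cell or basophil genes, 4 were tested, and all 4 had higher means in Nras cells in both populations. Their median log2 difference, averaged over both populations, was 1.65, beside -0.15 for all genes, and the list's summed signal was at most 1122. Of 9 tested proliferation genes, all 9 were higher in Nras in GFPhigh cells, and 6 were higher and 3 lower in GFP- cells. The part of any of these lists in the differences below was not tested.

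The sequences below lie upstream of 3 genes chosen from the averaged comparisons: Dusp1 and Dusp6, which had an unadjusted p under 0.05 between Nras and wild-type cells averaged over both populations, and Dusp5, which had the lowest p of the 8 genes between GFPhigh and GFP- cells averaged over both genotypes. Each is the 250 bases before the transcription start in RefSeq (GRCm38.p6), written 5′ to 3′ on the gene's own strand. RefSeq promoters were matched for 7 of the 8 genes, all but Dusp4. The Dusp1 window is chr17:26508473-26508722 on the minus strand, the Dusp6 window chr10:99262981-99263230 on the plus strand and the Dusp5 window chr19:53528895-53529144 on the plus strand. Capitals mark a cAMP response element and the shorter cAMP response letters TGACG in Dusp1, an ETS site in Dusp6 and a pair of CArG boxes in Dusp5.
Dusp1: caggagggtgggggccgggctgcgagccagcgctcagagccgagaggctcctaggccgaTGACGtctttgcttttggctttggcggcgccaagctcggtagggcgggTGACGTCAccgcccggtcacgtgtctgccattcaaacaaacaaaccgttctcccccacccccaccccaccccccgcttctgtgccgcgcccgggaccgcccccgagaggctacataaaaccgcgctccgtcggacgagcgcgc
Dusp6: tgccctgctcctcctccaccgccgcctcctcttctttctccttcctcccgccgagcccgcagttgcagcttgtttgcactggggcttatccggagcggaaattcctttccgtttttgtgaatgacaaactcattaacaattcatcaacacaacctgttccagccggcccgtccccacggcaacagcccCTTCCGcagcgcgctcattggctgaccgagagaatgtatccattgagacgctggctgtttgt
Dusp5: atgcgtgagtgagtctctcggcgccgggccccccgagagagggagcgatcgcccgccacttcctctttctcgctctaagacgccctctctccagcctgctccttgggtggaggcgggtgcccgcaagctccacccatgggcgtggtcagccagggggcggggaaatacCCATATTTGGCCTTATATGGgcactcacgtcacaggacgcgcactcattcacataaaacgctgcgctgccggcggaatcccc

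In the Dusp1 window the full cAMP response element TGACGTCA, the site of CREB family factors, lay at positions -143 to -136 from the start, and the shorter TGACG occurred again at -191 to -187. Both strands were searched for every motif, and the full element holds TGACG on each strand. Of 32851 RefSeq promoters of the same length, 1.55% held TGACGTCA and 17.8% held TGACG. The Dusp6 window held the ETS letters CGGAAG on the reverse strand, at positions -62 to -57, and ETS factors are among the known targets of ERK. CGGAAG occurred in 13.6% of the promoters. In Dusp5 the CArG boxes, the site of serum response factor, stood end to end at positions -82 to -73 and -72 to -63. A CArG box occurred in 1.47% of the promoters. The Dusp5 window also held TGACG on the reverse strand, at positions -55 to -51. Among the other matched genes, Dusp16 held TGACG and Dusp2 held the E-box CACGTG, also present in Dusp1. E-boxes occurred in 6.02% of all promoters. Of the remaining motifs searched, the AP-1 letters TGANTCA (6.75% of promoters) and the TATA letters TATAAA (12.4%) were in none of the 7 windows. These matches describe letters in a window and are no evidence of binding in these cells.

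The first comparison asked whether the phosphatase transcripts differed between Nras and wild-type HSCs, averaged over both populations. Dusp1 was about 2 times as high in Nras cells (fold 1.99, 95% interval 1.28 to 3.11) and Dusp6 was 1.68 times as high (1.11 to 2.54). The other 6 genes had lower means in Nras cells, from -0.35 on the log2 scale for Dusp2 to -1.35 for Dusp16. No member passed an adjusted p of 0.05 in limma, where 0.00828% of all genes (1 gene, Gem) did. At an unadjusted p under 0.05, 2 of the 8 members were past the threshold, Dusp1 and Dusp6, against 7.78% of all genes, and both were higher in Nras cells, a direction that 2.66% of all genes had at that threshold. The median log2 difference of the 8 members was -0.64, beside -0.15 for all genes tested.

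Dusp1, which encodes an early-response nuclear phosphatase that acts on p38, JNK and ERK, was measured by probe set 1448830_at. Its signal was 10512, 3245 and 3522 in Nras GFPhigh cells, 4176, 4927 and 3446 in Nras GFP- cells, 3407, 2214 and 2848 in wild-type GFPhigh cells, and 2279.8, 1343 and 2061 in wild-type GFP- cells (replicates 1, 2 and 3). Replicate 1 of Nras GFPhigh cells stood far above every other array, all 3 Nras GFP- arrays were above all 3 wild-type GFP- arrays, and a single wild-type array, GFPhigh replicate 1, was above the lowest Nras array. The group means were 5759.7 ± 4118 in Nras GFPhigh cells, 4183 ± 740.4 in Nras GFP- cells, 2823 ± 597 in wild-type GFPhigh cells and 1895 ± 490.4 in wild-type GFP- cells (SD, n = 3 each).

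Averaged over both populations, Dusp1 differed by 0.996 ± 0.30 (SE, log2 scale) between Nras and wild-type cells, with an unadjusted p of 0.00527 and an adjusted p of 0.579 in limma. In order of unadjusted p it was number 90 of the 12083 genes. All genes together had a median difference of -0.15, and relative to it Dusp1 stood 1.15 higher. Median centring of the arrays moved that median to 0.13. Without Nras GFPhigh replicate 1 the difference was 0.72. Within GFP- cells Dusp1 was 2.24 times as high in Nras cells (log2 difference 1.16 ± 0.42, limma unadjusted p = 0.0161, adjusted p = 0.983). It was the 1 member of 8 at an unadjusted p under 0.05 there, against 4.39% of all genes. Those groups did not overlap, which held for 10.8% of all genes in GFP- cells, and for 4.07% with Nras higher. Within GFPhigh cells the log2 difference was 0.83 ± 0.42, with an unadjusted p of 0.0708 and an adjusted p of 0.638 in limma. That value rested on 1 array: it was 0.28 without Nras GFPhigh replicate 1. Without the 4 uneven arrays, which left Nras GFPhigh replicate 3 alone in its group, it was 0.18. Nras GFPhigh replicate 1 also had the highest Gapdh 3′ to 5′ signal ratio of the 12 arrays (7.28) and a summed granulocyte signal of 42847. Its summed erythroid (11881.5), monocyte or macrophage (13515) and endothelial or stromal (7160) signals were the highest of the 12 arrays. The part of any of these in its Dusp1 signal was not tested.

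Dusp6 encodes the cytoplasmic phosphatase that binds and inactivates ERK and is widely used as a transcriptional readout of ERK activity. Probe set 1415834_at gave 1985, 2074 and 3086 in Nras GFPhigh cells, 3643, 2071 and 2686 in Nras GFP- cells, 1100.1, 1265 and 1247 in wild-type GFPhigh cells, and 2274, 1296 and 2222 in wild-type GFP- cells. Every Nras GFPhigh array was above every wild-type GFPhigh array, whereas in GFP- cells replicate 2 of the Nras group lay among the wild-type values. The means were 2382 ± 612 in Nras GFPhigh cells, 2799.9 ± 792 in Nras GFP- cells, 1204 ± 90.6 in wild-type GFPhigh cells and 1931 ± 551 in wild-type GFP- cells (SD, n = 3 each).

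**Figure D1:**
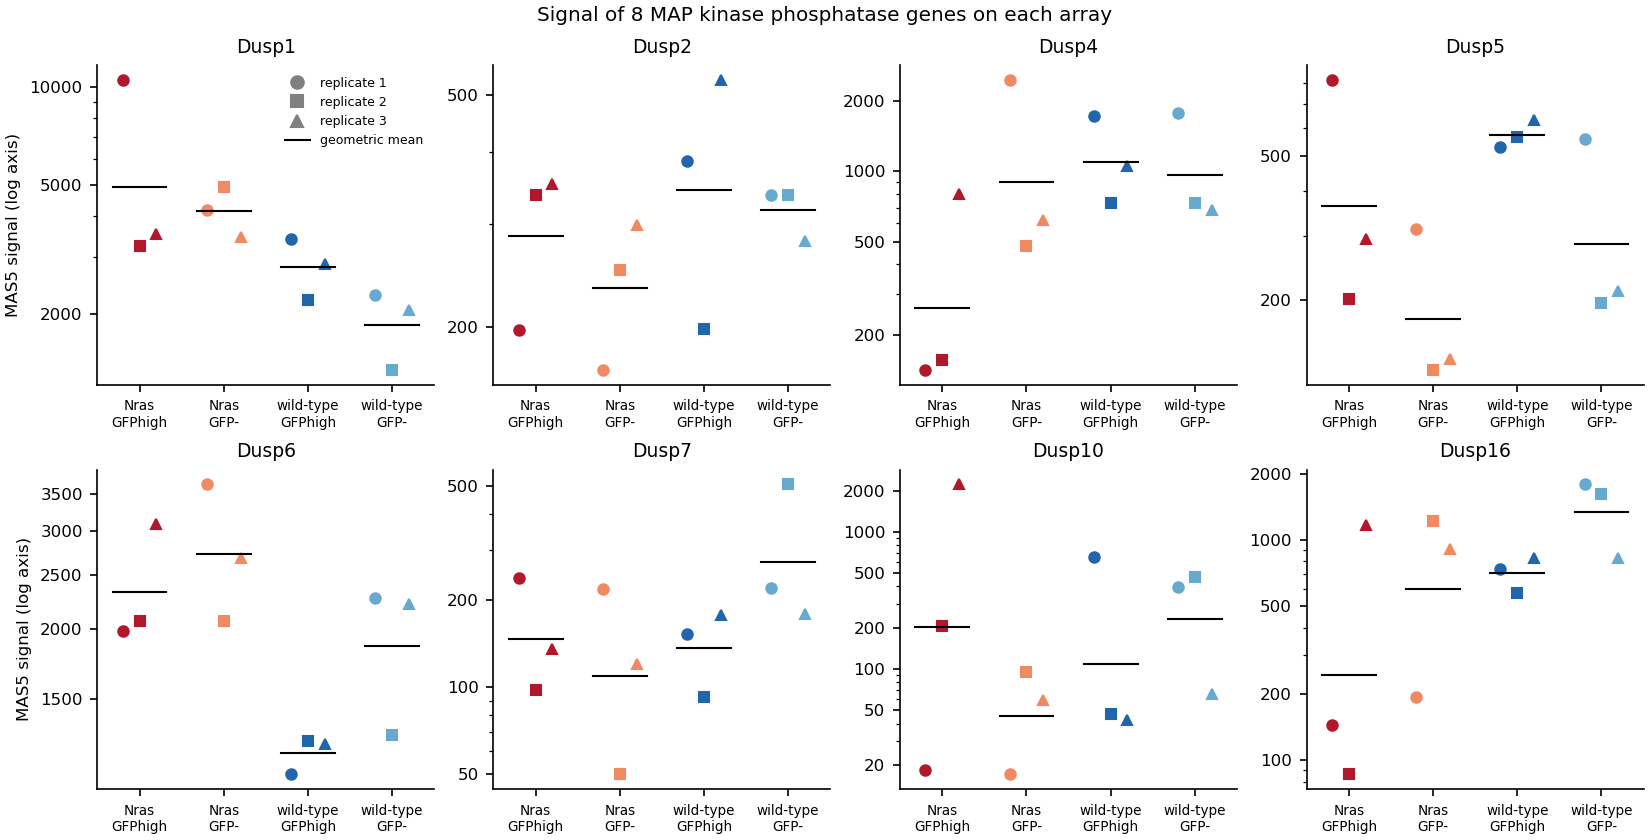
MAS5 signal (log axis) of the 8 phosphatase genes on each of the 12 arrays, by group, with replicates 1, 2 and 3 as circles, squares and triangles and the geometric mean of each group as a line. Dusp6 in wild-type GFPhigh cells (1100.1 to 1265) lies below all 3 Nras GFPhigh arrays, and Dusp1 in Nras GFP- cells (3446 to 4927) lies above all 3 wild-type GFP- arrays.

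Between Nras and wild-type cells, Dusp6 differed by 0.75 ± 0.28 on the log2 scale averaged over both populations (limma unadjusted p = 0.0174, adjusted p = 0.597), or 0.90 relative to the median gene. In GFPhigh cells the difference was 0.96 ± 0.39, a fold of 1.94, with an unadjusted p of 0.0289 and an adjusted p of 0.566 in limma. The GFPhigh groups did not overlap, as for 12.5% of all genes, and for 5.12% with Nras higher. In GFP- cells the difference was 0.54 ± 0.39 (limma unadjusted p = 0.187). Leaving out Nras GFP- replicate 1 brought it to 0.33, and leaving out wild-type GFP- replicate 2 to 0.28. Dusp6 had the smallest spread within groups of the 8 genes (residual SD 0.36, at percentile 7.94 among all genes tested), followed by Dusp2 (0.49) and Dusp1 (0.55, percentile 18.8).

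Across the 24 alternatives run, the averaged difference of Dusp1 lay between 0.67 and 1.28, with an unadjusted p between 0.00238 and 0.0272. For Dusp6 it lay between 0.62 and 1.04, and the unadjusted p was under 0.05 in 23 of the 24. The exception used replicates 1 and 2 alone, where the difference was 0.73 and p was 0.125 in limma. Each gene has 1 probe set, so alternatives in filters, probe set choice, intensity trend and the replicate number as a block could not change its difference. Fits with 1 array left out share most of their arrays. In replicate 3, the set of opposite sex-linked signals, both genes read higher on the Nras array than on the wild-type array in both populations.

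**Figure D2:**
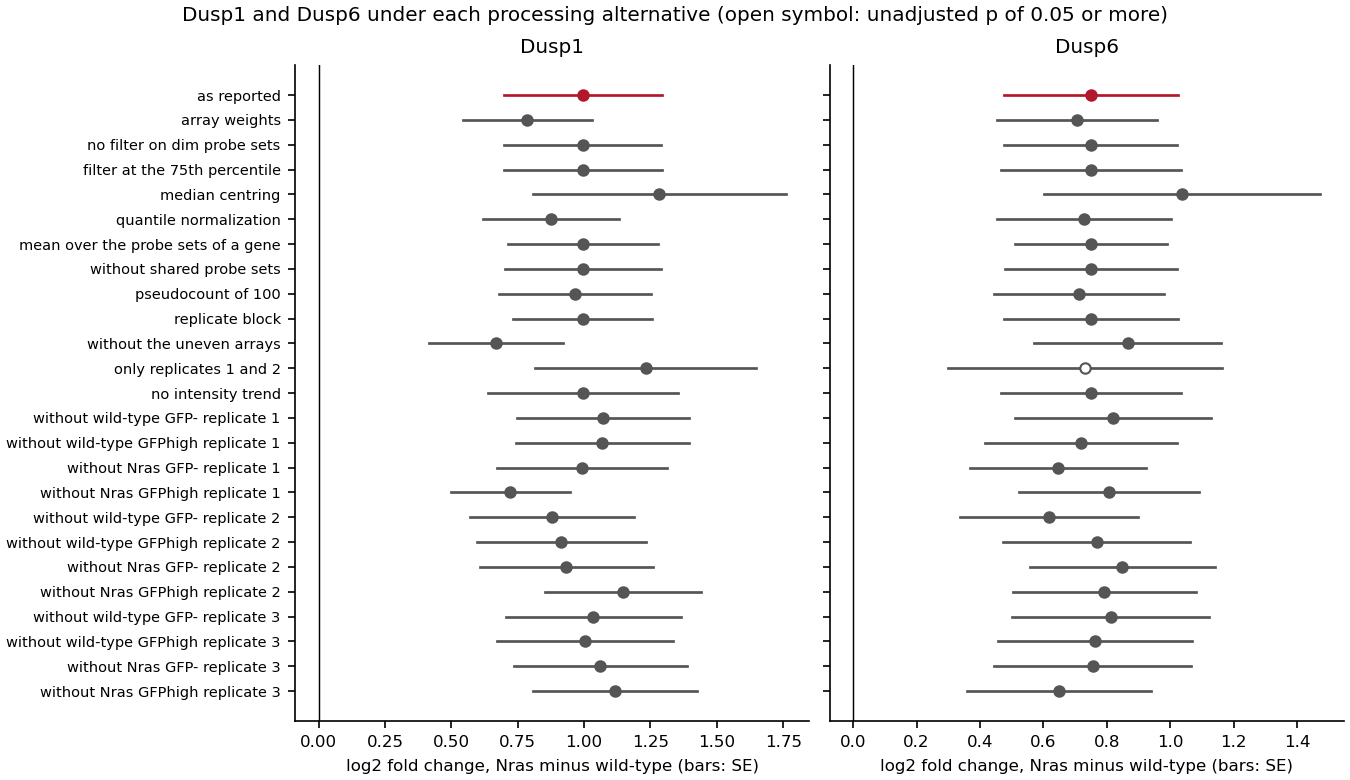
Log2 fold change of Dusp1 and Dusp6, Nras minus wild-type averaged over both populations, as reported (red) and under each of the 24 alternatives (grey), with bars of 1 SE from limma and an open symbol where the unadjusted p was 0.05 or more. Estimates run from 0.67 to 1.28 for Dusp1 and from 0.62 to 1.04 for Dusp6, all above 0, and the 1 open symbol is Dusp6 with replicates 1 and 2 alone. Alternatives in filters, probe set choice, intensity trend and replicate number leave these estimates unchanged by design.

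Among the other inducible nuclear phosphatases, Dusp4, whose product acts on ERK and JNK, had its lowest values in Nras GFPhigh cells. Its signal was 141.5, 155.8 and 801 in Nras GFPhigh cells, 2456, 477 and 617 in Nras GFP- cells, 1720.3, 732 and 1053 in wild-type GFPhigh cells, and 1767, 734 and 685 in wild-type GFP- cells. Replicates 1 and 2 of Nras GFPhigh cells were below all other arrays, while replicate 3 lay within the wild-type range, so the groups overlapped. The log2 difference between Nras and wild-type GFPhigh cells was -2.08 ± 0.85 (fold 0.237, limma unadjusted p = 0.0294, adjusted p = 0.566). Dusp4 and Dusp6 were the 2 of 8 members with an unadjusted p under 0.05 in GFPhigh cells, against 8.29% of all genes. Both low arrays are among the 4 uneven ones. Without those 4, with replicate 3 alone in the Nras GFPhigh group, the Dusp4 difference was -0.75. Without Nras GFPhigh replicate 3 it was -2.89. The 2 low arrays also had the highest summed granulocyte signals, 42847 and 57195, against 5728 in replicate 3. Their summed erythroid signals (11881.5 and 8915, against 172.4) and monocyte or macrophage signals (13515 and 11848, against 4114) were the highest too. So were their endothelial or stromal signals (7160 and 7057, against 3449). The part of any of these in the Dusp4 signal was not tested. In GFP- cells the Dusp4 difference was -0.10 ± 0.85, and it was 0.51 with median centring.

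Dusp5 encodes a nuclear phosphatase selective for ERK. It gave 816, 201.5 and 294.5 in Nras GFPhigh cells, 315, 127.7 and 137 in Nras GFP- cells, 532, 565 and 631 in wild-type GFPhigh cells, and 559, 196.2 and 211.5 in wild-type GFP- cells. The 3 wild-type GFPhigh arrays were close to each other, and in the other 3 groups replicate 1 was the highest. Nras minus wild-type differences were -0.66 ± 0.76 in GFPhigh cells and -0.69 ± 0.76 in GFP- cells, both with overlapping groups.

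Dusp2 encodes a nuclear phosphatase first described in activated lymphocytes. It varied least over the 12 arrays, with 197.4, 337.5 and 353 in Nras GFPhigh cells, 168.7, 250.6 and 299 in Nras GFP- cells, 385, 198.4 and 531 in wild-type GFPhigh cells, and 336, 337.5 and 281 in wild-type GFP- cells. Its highest array was 3.15 times its lowest, and the order of the 4 group means had no pair of neighbours without overlap. The averaged Nras minus wild-type difference was -0.35 ± 0.47.

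Dusp7, the cytoplasmic relative of Dusp6, had its highest signal on 1 wild-type GFP- array. Probe set 1427416_x_at gave 239, 97.6 and 136 in Nras GFPhigh cells, 219, 49.9 and 120.9 in Nras GFP- cells, 153.4, 92.4 and 178.8 in wild-type GFPhigh cells, and 221, 507 and 179 in wild-type GFP- cells. Nras minus wild-type differences were 0.11 ± 0.80 in GFPhigh cells, where array weights gave -0.15, and -1.31 ± 0.80 in GFP- cells. A second probe set, 1452097_a_at, gave 12.7 to 226.1, and its averaged Nras minus wild-type difference was 0.06, against -0.60 for the first. The third, 1460393_a_at, gave 5.9 to 21.7, below the median of every array.

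Dusp16 and Dusp10, whose products act on JNK and p38, varied most among the 8 genes. Dusp16 (1418401_a_at) gave 144.1, 86.3 and 1176 in Nras GFPhigh cells, 194.7, 1214 and 906 in Nras GFP- cells, 741, 575.5 and 830.1 in wild-type GFPhigh cells, and 1795, 1617 and 828 in wild-type GFP- cells. The 3 lowest arrays were 3 of the 4 uneven ones, Nras GFPhigh replicates 1 and 2 and Nras GFP- replicate 1. Its averaged Nras minus wild-type difference was -1.35 ± 0.68 (limma unadjusted p = 0.0702, adjusted p = 0.66). Without the 4 uneven arrays, with 1 array left in the Nras GFPhigh group, it was 0.12. The second Dusp16 probe set, 1440615_at, gave 2.1 to 129.2 and was low on Nras GFP- replicates 1 and 3, Nras GFPhigh replicate 1 and wild-type GFPhigh replicate 1.

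Dusp10 (1417164_at) gave 18.4, 206.4 and 2236 in Nras GFPhigh cells, 17, 94.3 and 59.6 in Nras GFP- cells, 652, 46.9 and 42.4 in wild-type GFPhigh cells, and 394, 466 and 66.2 in wild-type GFP- cells. Its highest signal was 131.5 times its lowest, and both were from Nras arrays. The residual SD of 2.29 on the log2 scale was at percentile 92.8 among the genes tested. The averaged Nras minus wild-type difference was -0.71 ± 1.14 with this probe set and 0.59 with the other, 1417163_at, so its direction was not settled.

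**Figure D3:**
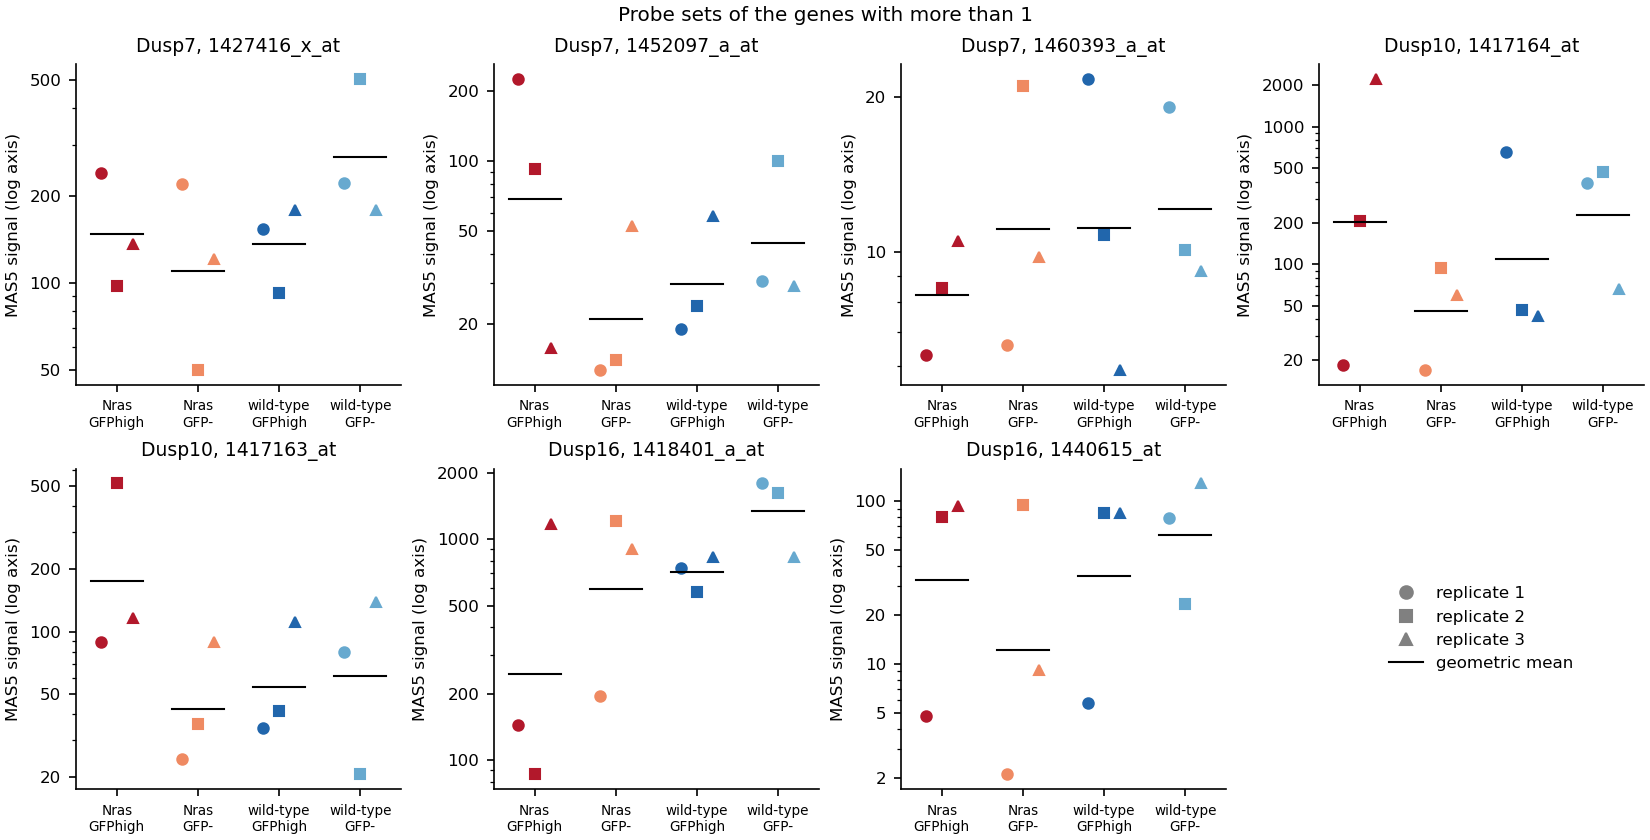
MAS5 signal (log axis) on each array for every single-gene probe set of Dusp7, Dusp10 and Dusp16, by group. The Dusp10 probe sets do not order the arrays alike: Nras GFPhigh replicate 3 reads 2236 with 1417164_at and 116.5 with 1417163_at.

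The labels call GFPhigh cells quiescent and GFP- cells cycling, and the second question was whether the phosphatases differed between them. No member passed an adjusted p of 0.05 or an unadjusted p of 0.05 in limma, averaged over both genotypes or within either. At that unadjusted p the share of all genes was 8.87% averaged, 12.2% in Nras cells and 2.2% in wild-type cells, and 0 genes passed the adjusted threshold in any of the 3 comparisons. The members' median log2 difference was -0.040, 0.28 and -0.26 in those 3 comparisons, beside 0.018, 0.082 and -0.031 for all genes.

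Averaged over both genotypes, Dusp5 had the lowest p of the 8 genes, with a GFPhigh signal 2.04 times the GFP- signal (log2 difference 1.03 ± 0.54, limma unadjusted p = 0.0778, adjusted p = 0.611). Its difference was 1.04 in Nras cells, where it was 0.46 without Nras GFPhigh replicate 1, and 1.01 in wild-type cells. Dusp1 differed by 0.42 ± 0.30, with 0.25 in Nras cells, where median centring gave -0.23, and 0.59 in wild-type cells. Dusp6 ran the other way, at -0.43 ± 0.28 averaged. In wild-type cells its GFPhigh and GFP- groups did not overlap, with GFPhigh lower (-0.64 ± 0.39, limma unadjusted p = 0.125). The nearest arrays read 1265 in GFPhigh and 1296 in GFP- cells, the latter being replicate 2. Dusp7 was the other member whose wild-type groups did not overlap, by a margin of 178.8 in GFPhigh against 179 in GFP- cells, so 2 of 8 members were apart in wild-type cells, against 11.1% of all genes. In Nras cells no member had groups that did not overlap, against 12.9% of all genes.

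Dusp4 had the largest GFPhigh minus GFP- difference among the inducible nuclear genes in Nras cells, -1.79 ± 0.85 (limma unadjusted p = 0.0554, adjusted p = 0.422). It was 0.56 without the 4 uneven arrays, where 1 array stood for Nras GFPhigh cells. For Dusp16 the averaged difference was -1.11 ± 0.68, and 0.29 with its second probe set. Differences for Dusp2 (0.21), Dusp7 (-0.29) and Dusp10 (0.54) were each smaller than their SE. The comparison within wild-type cells shares the wild-type arrays with the Nras comparisons above, so the low Dusp6 signal of wild-type GFPhigh cells enters both.

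**Figure D4:**
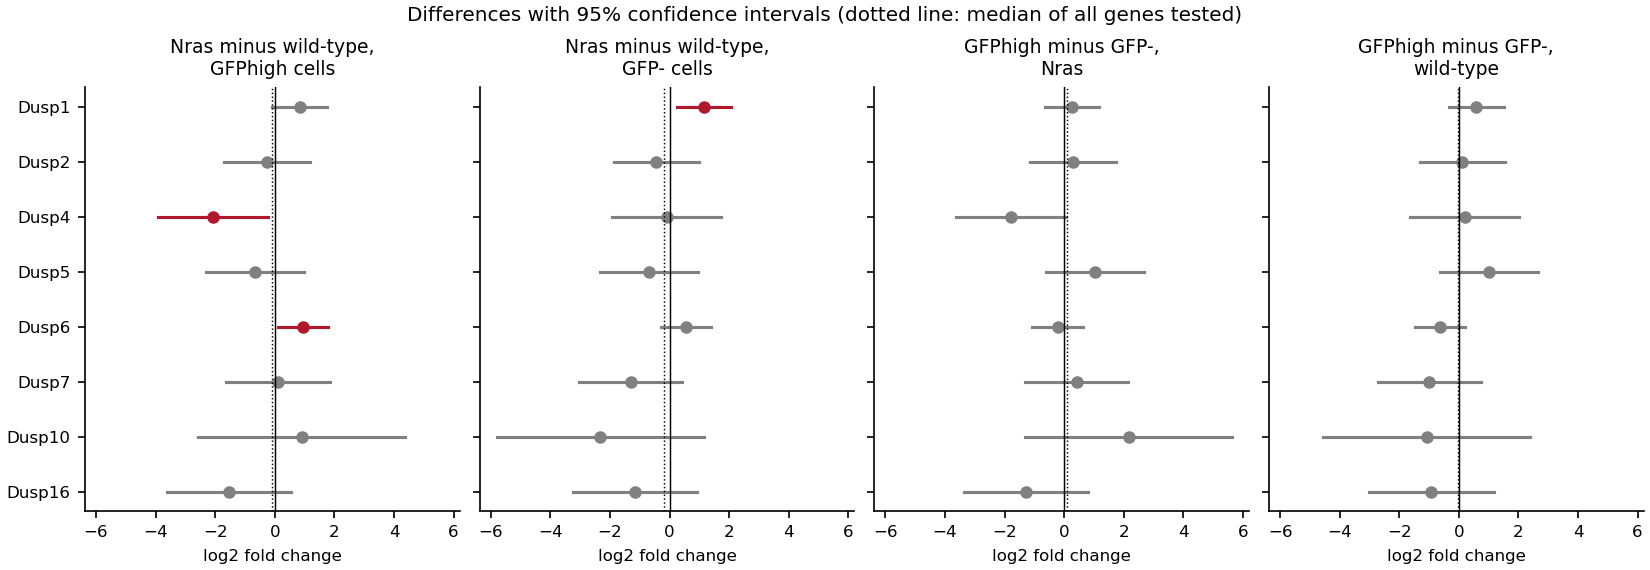
Log2 fold changes of the 8 genes with 95% confidence intervals from limma, Nras minus wild-type in GFPhigh and in GFP- cells and GFPhigh minus GFP- in Nras and in wild-type cells, with the median of all genes tested as a dotted line. Red marks an unadjusted p under 0.05, which Dusp4 (-2.08) and Dusp6 (0.96) have in GFPhigh cells and Dusp1 (1.16) in GFP- cells, and Dusp10 has the widest interval in each panel.

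Whether the GFPhigh minus GFP- difference itself differed between genotypes was tested with the interaction term. No member passed an adjusted or an unadjusted p of 0.05 in limma, where 4.68% of all genes passed the unadjusted threshold and 0 the adjusted one. The largest estimates were 3.23 ± 2.27 for Dusp10 and -1.98 ± 1.20 for Dusp4, with unadjusted limma p-values of 0.179 and 0.123 from the fit across all genes. Leaving out 1 array in turn gave 1.51 to 4.97 for Dusp10, lowest without Nras GFPhigh replicate 3 and highest without replicate 1. For Dusp4 it was 0.076 without the 4 uneven arrays, with 1 array left in the Nras GFPhigh group. For Dusp1 the estimate was -0.34 ± 0.60. For Dusp6 it was 0.41 ± 0.55, and -0.22 with median centring.

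By group mean, Dusp1 ran from Nras GFPhigh through Nras GFP- and wild-type GFPhigh to wild-type GFP- cells. Of its neighbours in that order, Nras GFP- and wild-type GFPhigh did not overlap, and the other pairs did. The nearest arrays of that pair read 3446 and 3407. The pair came from ordering the means, and its share over all genes was not computed. Dusp6 was highest in Nras GFP- cells, then Nras GFPhigh, wild-type GFP- and wild-type GFPhigh cells. Only the last pair did not overlap, as for 11.1% of all genes. Over the 12 arrays Pearson's r between the members' log2 signals ran from -0.54 (Dusp1 with Dusp16) to 0.56 (Dusp2 with Dusp10), given as a description, since arrays share their group and quality.

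Genes of the same pathway were taken from lists. No gene of any list passed an adjusted p of 0.05 in limma in any of the 7 comparisons. Other feedback genes and transcriptional outputs of ERK had 17 of 22 members tested, and in the averaged Nras comparison 10 were higher and 7 lower, with 3 higher and 1 lower at an unadjusted p under 0.05 (7.78% of all genes, 2.66% with Nras higher) and a median of 0.13 beside -0.15 for all genes. Ccnd1, which encodes cyclin D1, gave 4441, 3311 and 3085 in Nras GFP- cells, against 2038, 1478 and 1358 in wild-type GFP- cells. Its log2 difference in GFP- cells was 1.16 ± 0.34 (limma unadjusted p = 0.00498, adjusted p = 0.983). Those groups did not overlap, as for 10.8% of all genes in GFP- cells, and for 4.07% with Nras higher. In GFPhigh cells the Ccnd1 difference was 0.18 ± 0.34 (limma unadjusted p = 0.604). Egr1, an immediate-early transcription factor gene, differed by 0.59 ± 0.18 between GFPhigh and GFP- cells averaged over genotypes (limma unadjusted p = 0.00545, adjusted p = 0.439), and Myc by -0.62 ± 0.21. Etv5, an ETS factor gene induced by ERK, differed by -2.12 ± 0.73 between GFPhigh and GFP- cells in Nras mice (limma unadjusted p = 0.0126, adjusted p = 0.307).

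**Figure D5:**
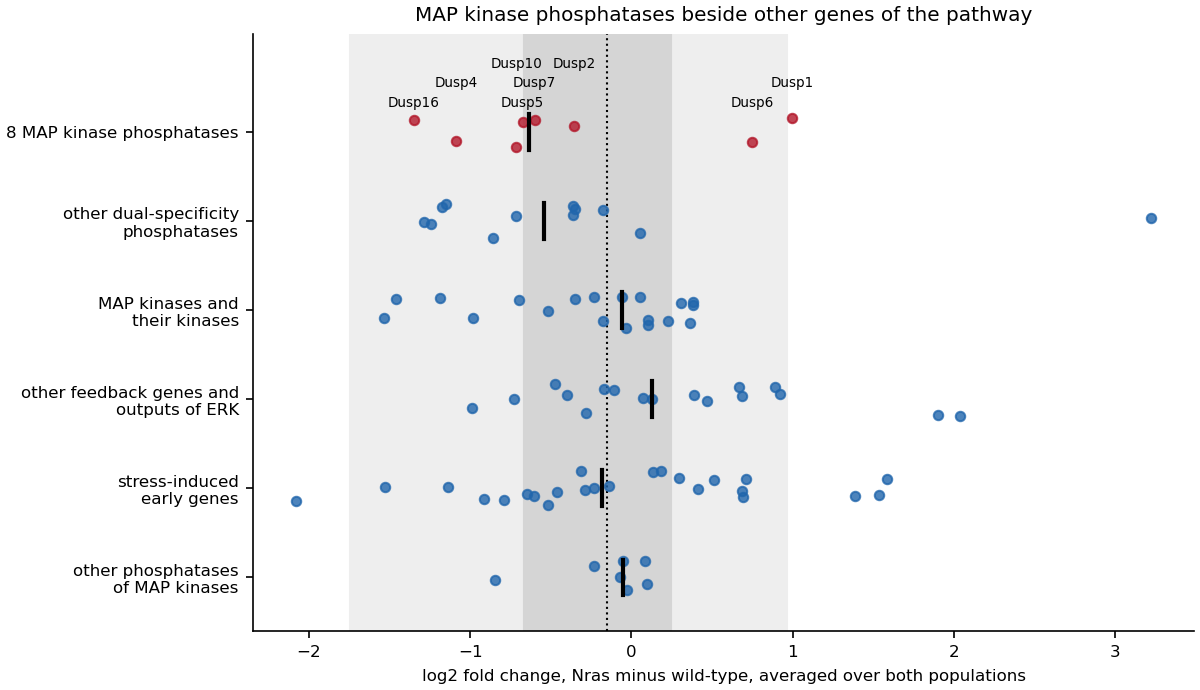
Log2 fold change, Nras minus wild-type averaged over both populations, of each tested gene (points, spread vertically for legibility) in the phosphatase family and the pathway lists, with list medians as bars and, for all genes tested, the median as a dotted line and the ranges between percentiles 25 and 75 and between percentiles 5 and 95 as dark and light shading. Dusp1 (0.996) lies just past percentile 95 and Dusp6 (0.75) within it, and the other 6 phosphatase genes lie below the median of all genes.

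Stress-induced early genes, to which Dusp1 is related by its rapid induction, had 24 of 27 members tested. In Nras cells 21 of the 24 had a higher mean in GFPhigh than in GFP- cells, 6 of them at an unadjusted p under 0.05 (12.2% of all genes, in either direction), and their median difference was 0.96 beside 0.082 for all genes. In the same comparison all 9 tested granulocyte genes (median 4.33) and all 8 tested endothelial or stromal genes (median 2.30) had higher means in GFPhigh cells. The median deviation of the stress list was highest, at 0.79, on Nras GFPhigh replicate 1, an uneven array, and the part of these in the list's difference was not tested. Klf6 gave 10411, 7766 and 5817 in Nras GFPhigh cells, against 3603, 4263 and 4405 in Nras GFP- cells. Between genotypes the list was mixed, with 11 higher and 13 lower in the averaged comparison and a median of -0.18, beside -0.15 for all genes. In GFPhigh cells 15 were higher and 9 lower in Nras (median 0.43, beside -0.090). In GFP- cells 9 were higher and 15 lower (median -0.29, beside -0.17).

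MAP kinases and their upstream kinases had 19 of 24 members tested, with 8 higher and 11 lower in Nras cells on average, 2 of the lower ones at an unadjusted p under 0.05, a share near the 7.78% of all genes. These were Map3k1 (-1.19 ± 0.53) and Map3k5 (-1.53 ± 0.58). Dual-specificity phosphatases outside the classical family had 12 of 18 members tested, with 2 higher and 10 lower in the averaged Nras comparison. Their median was -0.54, beside -0.15 for all genes. At an unadjusted p under 0.05 there was 1, against 7.78% of all genes: Dusp26, higher by 3.22 ± 1.17 (limma unadjusted p = 0.0165, adjusted p = 0.594). Dusp26 gave 5649, 1393 and 523 in Nras GFPhigh cells, 6.5, 1066 and 39.3 in Nras GFP- cells, 305.1, 22.5 and 426 in wild-type GFPhigh cells, and 10.5, 6.8 and 8.1 in wild-type GFP- cells. Of 9 other phosphatases of the pathway, such as subunits of PP2A, 7 were tested, with 2 higher and 5 lower and none at an unadjusted p under 0.05. Dusp8 and Dusp9, the remaining classical family members, gave 79.2 to 301.6 and 8 to 495 over the 12 arrays, with no unadjusted p under 0.05 in any comparison.

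The transcript whose log2 signal followed Dusp1 most closely over the 12 arrays was Slc44a2 (Pearson's r 0.93, Spearman's rho 0.91), then Col4a1 (0.90) and St3gal1 (0.87). For Dusp6 the closest were Ppp1r15b (r 0.82, rho 0.87), Fmn2 and Rsl1d1 (0.82 each). Dusp16 was followed by Pip4p2 (0.94), Dusp4 by Atg9a (0.92), Dusp2 by Fbxl21 (0.90), Dusp5 by Ntn5 (0.89), Dusp7 by Pdcl (0.88) and Dusp10 by Mettl1 (0.84). These values are the highest among all genes tested and describe these arrays, which share groups and quality. Nras itself gave 3004, 2409.7 and 4275 in Nras GFPhigh cells, 3567, 3846 and 3530.4 in Nras GFP- cells, 2415, 1250.2 and 3374 in wild-type GFPhigh cells, and 3209.8, 3159 and 2881 in wild-type GFP- cells. A point mutation need not alter the transcript level, so these signals do not check the genotype labels.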

How the data were processed

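Total RNA was extracted with Trizol from sorted HSCs and labelled as biotinylated cRNA for Affymetrix arrays, per the labels' protocols. The deposited values are linear MAS5 signal intensities, per the submitters' processing notes, and each array's trimmed mean is 500. No version, detection call or statistical method was given in the sources used here. Of 45101 probe sets, 64 were controls, 34945 had 1 gene in the platform annotation, 932 several and 9160 none. The 3 values under 0.1 were set to 0.1 before log2.

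One mean per group was fitted to log2 signals of 12083 genes on all 12 arrays with limma 3.58.1 in R 4.3.3 (lmFit, contrasts.fit, eBayes with an intensity trend), and p-values were Benjamini-Hochberg adjusted over all those genes in each of 7 comparisons. Fold changes and 95% intervals come from that fit, which was also run on simulated data. The simulated arrays had independent noise of equal spread, unlike the uneven arrays here, so that run cannot speak to their effect. With 3 arrays a group, array number limits the precision, and all members were given a value on every array. The members and lists were chosen with earlier results of these data known. All members were named, with up to 4 genes per list by lowest unadjusted p and the 3 genes of highest Pearson's r per member. Alternatives covered array weights, filters, scaling, probe set choice, a pseudocount of 100, the replicate number, left-out arrays, the fitted groups and the intensity trend.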

Additional observations from a re-analysis of the deposited data

How the results depend on the processing

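The precision is limited by 3 arrays a group and by dim probe sets: Dusp7, Dusp10 and Dusp16 lie near or below the array median on some arrays. Dusp4 came near it, at 1.20 times the median, on Nras GFPhigh replicate 2, and Dusp5, at 1.43 times, on Nras GFP- replicate 3. No detection calls were used. No member passed an adjusted p of 0.05 in limma in any of 179 recounts over the 7 comparisons, and the lowest adjusted p of a member was 0.145, for Dusp4 between Nras and wild-type GFPhigh cells without Nras GFPhigh replicate 3. At an adjusted p under 0.1 the count was 0 too. Of 1369 recomputed log2 differences, 1296 kept their direction and side of the threshold and 73 turned direction, none of them called, and the cause was not tested. Many of the 1296 could not have changed. Filters, the intensity trend, the replicate block and fits of the compared groups alone leave a difference as it was. So does leaving out an array of a group outside the comparison. No member was called in any fit, so the side of the threshold never changed. The 1296 therefore do not measure stability. Same-numbered arrays had correlated deviations over 0.1 in 3 of 18 pairs (r between -0.044 and 0.152). All 3 pairs were between replicate 3 arrays, the set of opposite sex-linked signals. Of the 12 arrays, 11 correlated best with an array of their own number, a hint from the data and not from the design. With the replicate number as a block, 0 members were called in each comparison. Every group holds the same replicate numbers, so this block left each log2 difference unchanged by design. It could therefore not test whether a direction depends on the replicate number.

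The values that turned direction follow, as log2 differences. With array weights they were -0.15 for Dusp7, Nras minus wild-type in GFPhigh cells, and -0.20 for Dusp2 in the interaction. Median centring moved the median of all genes from main values of 0.018, 0.082, -0.15, -0.17 and 0.11 for the averaged GFPhigh, the Nras GFPhigh, the averaged Nras, the GFP- Nras and the interaction comparisons, and it was then -0.15, -0.41, 0.13, 0.43 and -0.53. Under it, GFPhigh minus GFP- in Nras cells was -0.23 for Dusp1, -0.19 for Dusp2 and -0.067 for Dusp7, Nras minus wild-type in GFP- cells was 0.16 for Dusp2 and 0.51 for Dusp4, and the interaction was -0.46 for Dusp2, -0.60 for Dusp5 and -0.22 for Dusp6. Quantile normalization gave -0.069 for Dusp7 between GFPhigh and GFP- in Nras cells, 0.00399 for Dusp2 between Nras and wild-type in GFP- cells, and -0.15 for Dusp2 and -0.43 for Dusp5 in the interaction. The mean over probe sets gave 0.072 for Dusp16 between GFPhigh and GFP- in Nras cells and 0.96 in the interaction. Leaving out shared probe sets, or taking Dusp16 probe set 1440615_at, gave 0.29 averaged, 1.43 in Nras cells and 2.28 in the interaction. A pseudocount of 100 gave -0.0186 for Dusp5 in the interaction. Dusp7 probe set 1452097_a_at gave 0.56 for averaged GFPhigh minus GFP- and 0.060 for averaged Nras minus wild-type. Probe set 1460393_a_at gave -0.42 for GFPhigh minus GFP- in Nras cells, -0.43 for Nras minus wild-type in GFPhigh cells and -0.30 in the interaction, and Dusp10 probe set 1417163_at gave 0.59 for averaged Nras minus wild-type.

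Leaving out the 4 uneven arrays left 1 array in the Nras GFPhigh group, so these values rest on a single reading for it. Without those 4, averaged GFPhigh minus GFP- was 0.52 for Dusp4 and 0.047 for Dusp7. In Nras cells it was -0.23 for Dusp1, 0.56 for Dusp4, 0.39 for Dusp6 and 0.17 for Dusp16. Nras minus wild-type was then 1.07 for Dusp10 and 0.12 for Dusp16 averaged, and -0.28 for Dusp7 and 0.58 for Dusp16 in GFPhigh cells, and the interaction was -0.15 for Dusp2, 0.076 for Dusp4 and 0.94 for Dusp16. With replicates 1 and 2 alone, GFPhigh minus GFP- was -0.33 for Dusp10 averaged, and -0.29 for Dusp2 and -0.021 for Dusp4 in wild-type cells, and Nras minus wild-type in GFPhigh cells was -1.51 for Dusp10. Leaving out 1 array in turn, GFPhigh minus GFP- ranged from -0.32 to 1.41 for Dusp10 averaged, from -0.29 to 0.56 for Dusp1 and -0.15 to 0.92 for Dusp7 in Nras cells, and from -0.13 to 0.63 for Dusp4 and -0.20 to 0.51 for Dusp2 in wild-type cells. Nras minus wild-type ranged from -1.58 to 0.15 for Dusp10 averaged, from -0.66 to 0.052 for Dusp2, -0.24 to 0.40 for Dusp7 and -0.82 to 2.64 for Dusp10 in GFPhigh cells, and from -0.82 to 0.36 for Dusp4 in GFP- cells. The interaction ranged from -0.55 to 0.46 for Dusp5, -0.21 to 0.50 for Dusp2 and -1.50 to 0.38 for Dusp16.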
